A study of Rattus norvegicus with 2 samples.

Results

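The genes of the microtubule motors, that is the kinesins, the cytoplasmic dyneins and the dynein cofactor dynactin, were compared between cortical neurons that received a control plasmid and neurons that received a PIWIL1 RNAi plasmid. The members were all listed genes whose rat symbol begins with Kif or Kifc and a digit, with Klc and a digit, or with Dync, Dynl or Dctn. This rule found 45 of the 9894 genes listed in either library. They were 24 kinesin heavy chains, 1 kinesin light chain, 8 Dync chains, 6 Dynl light chains and 6 dynactin subunits. The rule used names only and no measured value.

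Both libraries came from somatosensory cortex of Sprague-Dawley rats at E16. The tissue was dissociated, the cells were electroporated, and the neurons were kept for 48 h in Neurobasal medium with fetal bovine serum and B27. The Scramble library came from cells given the control plasmid and the PIWIL1 RNAi library from cells given an siRNA plasmid against PIWIL1, with 1 library for each. Which of the study's siRNAs was sequenced is not given in the sources used here. Cells that took up no plasmid were not described as removed, so each library mixes electroporated and other cells of the culture. No value was found for PIWIL1 itself by its symbol, so the knockdown was not checked in these libraries.

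Kinesins are ATP-driven motors, most of which walk toward the plus ends of microtubules, which in an axon point away from the cell body. Cytoplasmic dynein is a large complex that walks the other way, with heavy chains that hold the motor and with intermediate, light intermediate and light chains that join it to cargo and to dynactin. In a young neuron these motors carry membrane organelles along the neurites and pull the nucleus and centrosome during migration, while a separate set of kinesins builds the mitotic spindle of dividing cells.

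The mRNAs were measured by digital gene expression, in which a transcript is cut at CATG sites and a 21-base tag that begins with CATG is counted. The count of a gene adds up the copies of all its tags, and TPM (tags per 1e+06 clean tags) scales it to the depth of the library and takes no account of gene length. TPM values are therefore compared here between libraries and not between genes. Where a pair of values is given, Scramble comes first and PIWIL1 RNAi second. The tags below are the most copied ones of the members that passed the test, the sequences that were actually counted for these calls. They are written 5′ to 3′ with the last bases in capitals, because the ratio of a tag moved with the bases at its end. Their positions in the genome were not determined.
Dctn6: catgataacctgtcatattAT
Dync1i2: catgttgatgccgttttccTT
Dync2h1: catgcagtcagtctgcattTG
Kif11: catgccttcctgaggtctgAC
Kif22: catggcccctttaatgaggTG
Kif5b: catgagaggctaaaggctgTA
Dctn2: catgccagctcttgtccagTA
Kif26b: catggctAAAAAAAAAAAAAA

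A second set holds the most copied tags of further members, each among the best counted of its group. None of them was called in the deposited counts, although some met the FDR without reaching the log2 ratio that a call also needed.
Kif3c: catgtgaggtgtagcttttCC
Kif20a: catgtactcagactgtattCA
Kifc3: catgttcctctccctaaatCC
Klc4: catgtatttcactgtttctGT
Dync1h1: catgatcagcaagatgctgAA
Dync1i1: catggaacatatttatttgAA
Dync1li2: catgtggaaccttgctttcTA
Dynll2: catgcttgaacactgctttGC
Dynlt1: catgtactgcatcgtcagtGC
Dynlrb1: catgtggctgcctggagccAT
Dctn1: catgctaacttcttgagtgGT

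Tags with 20 or more copies in the libraries together are called well-counted here. Over all genes their median log2 ratio was -0.67 for tags ending in TG or GT, -0.39 for tags ending in AT, 0.16 for tags ending in CA and 1.91 for tags ending in 13 or more A. The most copied tags of Kif22 and Dync2h1 end in TG, that of Dctn6 in AT, and that of Kif26b in a run of A. For the called members, and for some others, a second log2 ratio is therefore also given, called here the corrected value. For it, the median of each tag end, less the median of all well-counted tags, had been taken out of the copies. The correction takes out a median only, and single tags spread around it.

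The Scramble library held 1947600 copies on genes and the PIWIL1 RNAi library 1865913. The members took 0.537% and 0.555% of these copies. All 45 members were listed in the control and 41 after RNAi. Among all 9894 genes, 9496 had a value in the control and 9297 after RNAi. The 4 members missing after RNAi were Kif5b, Kif16b, Kif20b and Kif15, with 8, 6, 4 and 2 copies in the control. The lowest copy number of any tag was 2, so these members lay close to the limit of listing. The median member had 120 copies in both libraries together, against 86.5 for all genes. There were 12 members with 500 or more copies and 12 with fewer than 50, for which the intervals are wide. Of the neuronal markers, 11 of 11 were listed, with a summed level of 4340 and 3884 TPM. Of these markers 7 were lower and 4 higher, and Snap25 and Elavl3 were downregulated by the rule given below. Among the higher ones, Gap43 had 2670 and 3541 copies, 74.4% of them on tags ending in 8 or more A. Its corrected log2 ratio was -0.31. Summed markers of other cells lay at 1093 and 1370 TPM for 8 of 9 genes of radial glia, of which Vim alone was higher, at 126 and 145 TPM for 4 of 5 genes of astrocytes, and at 7.09 and 6.96 TPM for 6 of 6 genes of oligodendrocyte lineage. They lay at 27.8 and 30.9 TPM for 5 of 6 genes of microglia, at 546 and 523 TPM for 5 of 5 genes of fibroblasts and at 20.4 and 24.2 TPM for 3 of 5 genes of blood. Of the endothelial markers 1 of 5 was listed, with 2 copies in the PIWIL1 RNAi library. The part of cell composition in the values below was not tested.

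**Figure D1:**
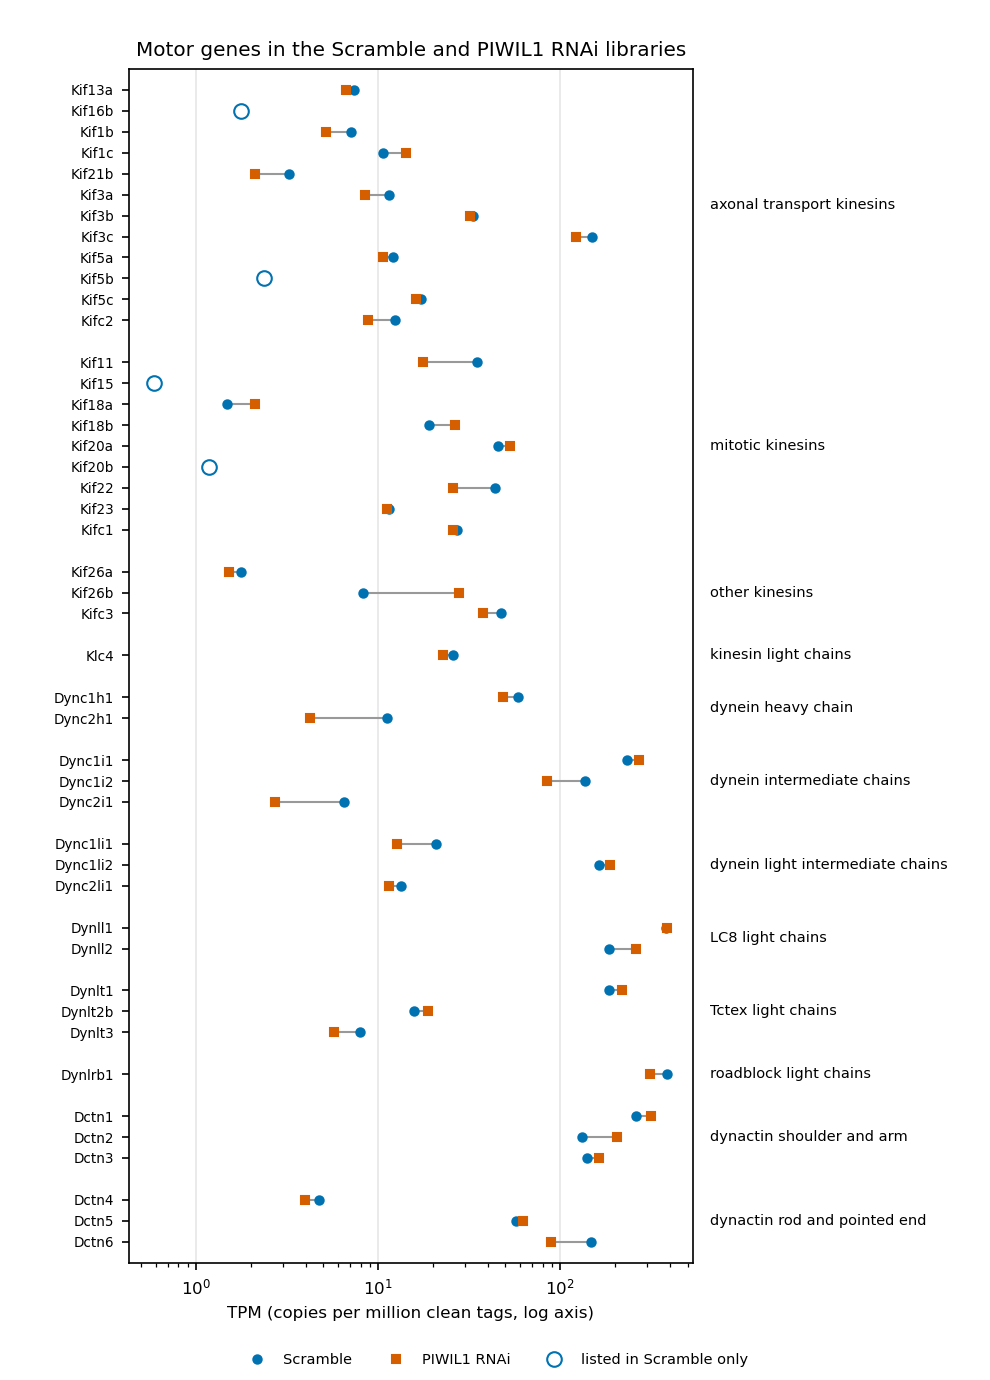
Level of each of the 45 motor genes, in TPM on a log axis, with circles for the Scramble library and squares for the PIWIL1 RNAi library, 1 library each. Most pairs of points lie close together, Kif26b, Dync2h1 and Kif11 lie furthest apart among the called members listed in both libraries, and open circles mark the 4 members that only the Scramble library lists.

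Of the 45 members, 6 were downregulated and 2 upregulated in the PIWIL1 RNAi library by the rule of the study, an FDR not above 0.05 (here from Fisher's exact test) with a log2 ratio of 0.58 or more in size. The members that fell were Dctn6, Dync1i2, Dync2h1, Kif11, Kif22 and Kif5b, and those that rose were Dctn2 and Kif26b. Among all genes tested, 5.97% were downregulated and 2.96% upregulated by the same rule, against 13.3% and 4.44% of the members. The median log2 ratio of the 41 members listed in both libraries was -0.18, with 15 higher and 26 lower. That of all genes listed in both was -0.085, with 3851 higher and 5041 lower. The member median was 0.04 when only the most copied tag of each gene was used, and with TMM scaling 19 members were higher and 22 lower. After the correction for the tag end, 2 members were downregulated and 2 upregulated, where the rule called 3.82% of all genes down and 1.87% up. The members downregulated both ways were Dync1i2 and Kif11, while those upregulated after the correction, Dctn1 and Kif18b, were not called in the deposited counts. A further 7 members met the FDR in the deposited counts without reaching the log2 ratio, namely Dctn1, Dync1i1, Dync1li2, Dynll2, Dynlt1, Dynlrb1 and Kif3c. Of all 9894 genes, 765 did so. Each test compares these 2 libraries and not the conditions, because there was no replicate, and its intervals cover counting error only. When variation between cultures was assumed in edgeR's exact test, at a coefficient of variation of 0.1, Kif26b was the only one of the 8 still called (FDR 0.000179). Because the cultures were measured in bulk, fewer cells of a type and less RNA per cell cannot be told apart.

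**Figure D2:**
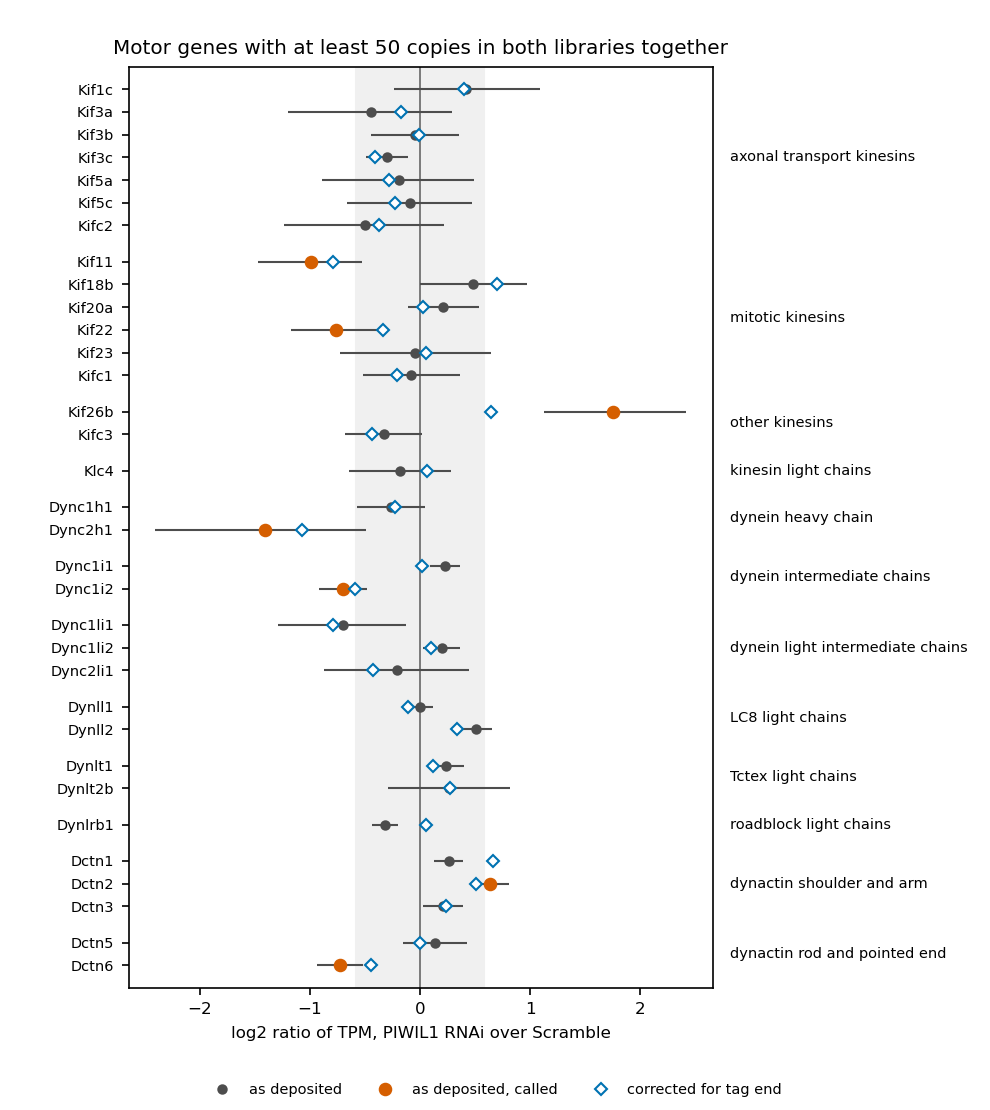
Log2 ratio of TPM, PIWIL1 RNAi over Scramble, of the 33 motor genes whose copies in the libraries add up to 50 or more. Circles are the values as deposited with 95% intervals for counting error (orange where called), diamonds the values corrected for the tag end, and the grey band spans log2 ratios from -0.58 to 0.58; Kif11, Dync1i2, Dync2h1 and Dync1li1 lie outside the band on the left both ways, the former pair being called both ways.

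Among the kinesins of axonal transport, 9 of the 10 listed in both libraries were lower in the PIWIL1 RNAi library, or 7 of 10 with TMM and 8 of 10 with DESeq2 scaling. Among all genes listed in both libraries, 5041 were lower and 3851 higher. Of these 10 kinesins, Kif3c alone had an interval that excluded 0. Only Kif5b, listed in 1 library, was called. The summed copies of the group went from 907 to 745, a log2 ratio of -0.25 (95% interval -0.39 to -0.11), and -0.30 after the correction. Kif3c, a kinesin that pairs with Kif3a, held most of these copies. It went from 505 copies (149 TPM) to 401 (121 TPM), a log2 ratio of -0.30 (95% interval -0.49 to -0.10), which passed on FDR (0.0348, Fisher's exact test) and not the ratio threshold. Both of its well-counted tags were lower, and its corrected log2 ratio was -0.40. Its partner Kif3a had 39 and 28 copies and a log2 ratio of -0.44 (95% interval -1.20 to 0.30). Kif3b, the other motor that pairs with Kif3a, had 112 and 106 copies and a log2 ratio of -0.04 (95% interval -0.44 to 0.35).

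The heavy chains of conventional kinesin, which move vesicles and mitochondria down the axon, had few copies. Kif5b had 8 copies on 3 tags in the Scramble library and none listed in the PIWIL1 RNAi library (Fisher's exact test, FDR 0.048). Tags seen once are absent from both tables, so no bound can be put on its fold change. When 1 copy was added wherever a tag was missing from a library, its FDR became 0.554 in Fisher's exact test. Kif5c had 58 and 53 copies, a log2 ratio of -0.09 (95% interval -0.66 to 0.47). Kif5a had 41 and 35 copies, a log2 ratio of -0.19 (95% interval -0.89 to 0.49). The intervals of both neuronal heavy chains included 0, so neither differed beyond counting error.

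Kif1c, a vesicle motor, was the only axonal transport kinesin with a higher value in the PIWIL1 RNAi library, with 36 and 47 copies and a log2 ratio of 0.42 (95% interval -0.24 to 1.09). The others were Kif1b with 24 and 17 copies, Kif13a with 25 and 22, Kif21b with 11 and 7, and Kifc2 with 42 and 29. Kif16b, a motor of early endosomes, had 6 copies in the control and none listed after RNAi. None of these 6 genes passed the FDR.

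Of the 9 mitotic kinesins, 2 were downregulated and none upregulated in the counts as deposited. Kif11, which pushes the poles of the spindle apart, fell from 118 copies (34.8 TPM) to 58 (17.6 TPM). Its log2 ratio was -0.99 (95% interval -1.47 to -0.52, Fisher's exact test, FDR 0.000309). All 3 of its well-counted tags were lower, with 37 and 15 copies at site 1, 36 and 23 at site 2 and 28 and 16 at site 4, where site 1 is the CATG nearest the 3′ end of the transcript. The corrected log2 ratio was -0.79 and still passed (Fisher's exact test, FDR 0.0124). With only its most copied tag the log2 ratio was -0.61 and did not pass (Fisher's exact test, FDR 0.347).

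Kif22, a kinesin that binds chromosomes, fell from 148 copies (43.7 TPM) to 85 (25.7 TPM), a log2 ratio of -0.76 (95% interval -1.17 to -0.37, Fisher's exact test, FDR 0.00163). Its tags did not go the same way. The tag at site 1, which ends in TG, had 114 and 54 copies, and the tag at site 2, which ends in AA, had 18 and 21. The corrected log2 ratio of Kif22 was -0.33 and did not pass.

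Kif18b, which works at the plus ends of spindle microtubules, had 64 and 87 copies and a log2 ratio of 0.48 (95% interval -0.00 to 0.97). Its well-counted tags had 43 and 58 copies at site 1 and 11 and 11 at site 6, and its corrected log2 ratio of 0.70 passed (Fisher's exact test, FDR 0.0218). The most copied mitotic kinesin was Kif20a, needed for cytokinesis, with 155 and 175 copies and a log2 ratio of 0.21 (95% interval -0.11 to 0.53). Kifc1, a minus-end motor of the spindle, had 92 and 85 copies and a log2 ratio of -0.08 (95% interval -0.52 to 0.36). The remaining 4 had few copies, with 39 and 37 for Kif23, 5 and 7 for Kif18a, and, in the control alone, 4 for Kif20b and 2 for Kif15.

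The summed copies of the mitotic kinesins were 627 and 534, a log2 ratio of -0.20 (95% interval -0.36 to -0.03), and -0.12 after the correction. Of the 7 listed in both libraries 4 were lower, and 2 with TMM or DESeq2 scaling. The sum of other markers of cycling cells was also lower. Of 20 markers 16 were listed, and their summed level was 1108 and 905 TPM, a log2 ratio of -0.29 (95% interval -0.36 to -0.22). Of these markers 13 were lower, and Pcna, Tpx2 and Prc1 passed the test as downregulated, of which Pcna still did after the correction. The corrected log2 ratios of Aurka, Aurkb, Birc5, Ccnb2 and Cdc20 lay above 0 and those of the other listed markers below 0. The part of cycling cells in the values of Kif11 and Kif22 was not tested.

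Kif26b, an atypical kinesin, rose from 28 copies (8.27 TPM) to 92 (27.9 TPM), the larger of both rises among the members, with a log2 ratio of 1.75 (95% interval 1.13 to 2.42, Fisher's exact test, FDR 1.96e-08). It was also the only member with tags that end in a run of 8 or more A, which held 66.7% of its copies. Such tags have few bases between CATG and the run, so that their match to 1 gene was taken as deposited. The 3 tags with such a run were all at site 1.
Kif26b site 1, 10 and 43 copies: catggctAAAAAAAAAAAAAA
Kif26b site 1, 2 and 15 copies: catggctgAAAAAAAAAAAAA
Kif26b site 1, 0 and 10 copies: catggcttAAAAAAAAAAAAA
Kif26b site 2, 8 and 17 copies: catgtttctgatttgctgtTT

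Copies on A-run tags of all genes went from 21048 to 50841. With these tags left out, the log2 ratio of Kif26b was 0.62, and after the correction it was 0.64 (Fisher's exact test, FDR 0.146), and it passed in neither case. The other members of this group were Kifc3, a minus-end motor, with 161 and 125 copies and a log2 ratio of -0.33 (95% interval -0.68 to 0.02), and Kif26a with 6 and 5 copies. The only light chain listed was Klc4, which links kinesin to cargo. It had 87 and 75 copies and a log2 ratio of -0.18 (95% interval -0.64 to 0.28), and its corrected value was 0.07.

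In cytoplasmic dynein, the total over the 8 Dync chains was 2179 and 2063 copies, a log2 ratio of -0.04 (95% interval -0.13 to 0.04) that was 0.05 with TMM scaling, while single chains differed. Dync1i2, the intermediate chain found in most cell types, fell from 464 copies (137 TPM) to 279 (84.5 TPM), a log2 ratio of -0.70 (95% interval -0.92 to -0.48, Fisher's exact test, FDR 1.49e-08). Its corrected log2 ratio was -0.59 and still passed (Fisher's exact test, FDR 1.18e-05). Dync1i1, the intermediate chain enriched in neurons, had 786 copies (232 TPM) and 898 (272 TPM), a log2 ratio of 0.23 (95% interval 0.09 to 0.37), which passed on FDR (0.00332, Fisher's exact test) and not the ratio threshold. The corrected value of Dync1i1 was 0.02. The log2 ratios of this pair differed by 0.93 (95% interval 0.67 to 1.19), or by 0.60 after the correction (0.34 to 0.86). Dync1i1 thus took 62.9% of the copies of the pair in the control and 76.3% after RNAi.

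The light intermediate chains, which bind the adaptors that choose the cargo, showed a difference of the same kind. Dync1li2 had 556 and 622 copies and a log2 ratio of 0.20 (95% interval 0.03 to 0.37). Dync1li1 had 70 and 42 copies and a log2 ratio of -0.70 (95% interval -1.29 to -0.13, Fisher's exact test, FDR 0.0893). The latter did not pass, although both of its well-counted tags were lower, with 38 and 15 copies at site 1 and 22 and 12 at site 6. The pair differed by 0.90 (95% interval 0.30 to 1.51), and by 0.89 after the correction (0.28 to 1.49).

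Dync1h1, the motor subunit of cytoplasmic dynein, had 198 copies (58.5 TPM) and 161 (48.7 TPM), a log2 ratio of -0.26 (95% interval -0.57 to 0.04). Dync2h1, the heavy chain of the dynein that works inside cilia, fell from 38 copies (11.2 TPM) to 14 (4.24 TPM), a log2 ratio of -1.40 (95% interval -2.40 to -0.49, Fisher's exact test, FDR 0.0157). Its corrected log2 ratio was -1.07 and did not pass (Fisher's exact test, FDR 0.133), as with only its most copied tag (FDR 0.122) or with missing tags put back (FDR 0.0615). The other listed genes with a Dync2 symbol were also lower without passing. Dync2i1 had 22 and 9 copies and a log2 ratio of -1.26 (95% interval -2.56 to -0.08, Fisher's exact test, FDR 0.134), and Dync2li1 had 45 and 38 copies and a log2 ratio of -0.21 (95% interval -0.87 to 0.45).

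No Dynl light chain reached both thresholds. Their summed copies were 3940 and 3960, a log2 ratio of 0.04 (95% interval -0.02 to 0.11), or 0.14 with TMM scaling. Dynll1 and Dynll2, the LC8 light chains, are close relatives that form dimers at the base of the dynein tail and also bind many other proteins. Dynll1 had 1298 copies (383 TPM) and 1268 (384 TPM), a log2 ratio of 0.00 (95% interval -0.11 to 0.12). Dynll2 had 625 copies (185 TPM) and 866 (262 TPM), a log2 ratio of 0.51 (95% interval 0.36 to 0.66, Fisher's exact test, FDR 6.33e-11), which lay below the ratio threshold. All 5 well-counted tags of Dynll2 were higher, and its corrected log2 ratio was 0.33. The pair differed by 0.50 (95% interval 0.32 to 0.69), and by 0.44 after the correction (0.25 to 0.63). With edgeR's TMM factors or DESeq2's size factors as the scaling, Dynll2 had a log2 ratio of 0.60 or 0.59 and was called upregulated.

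The roadblock chain Dynlrb1 is one of the light chains on the dynein tail and was the best counted member in the Scramble library. It had 1312 copies (387 TPM) and 1025 (310 TPM), a log2 ratio of -0.32 (95% interval -0.44 to -0.20, Fisher's exact test, FDR 1.78e-05), which did not reach the ratio threshold. Its 2 most copied tags end in AT and GT, and its corrected log2 ratio was 0.06. Dynlt1, a Tctex light chain, had 625 and 720 copies and a log2 ratio of 0.24 (95% interval 0.08 to 0.40). Its relatives Dynlt2b and Dynlt3 had 53 and 62 and 27 and 19 copies, and the intervals of both included 0.

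Dynactin docks dynein on cargo and makes it processive. Its 6 genes with a Dctn symbol had 2517 and 2763 copies in sum, a log2 ratio of 0.17 (95% interval 0.09 to 0.25). The ratio was 0.27 with TMM scaling and 0.33 after the correction. Dynactin subunits with other symbols are not in this sum. Among the Dctn genes, the sums of the shoulder and arm and of the pointed end lay on different sides of 0. The 3 genes of the shoulder and arm were all higher, with 1808 and 2248 copies in sum and a log2 ratio of 0.35 (95% interval 0.26 to 0.44), while the pointed end had 709 and 515 (-0.43, 95% interval -0.59 to -0.26), most of these copies being those of Dctn6. Dctn2, the dynamitin subunit, rose from 446 copies (132 TPM) to 675 (204 TPM), a log2 ratio of 0.63 (95% interval 0.46 to 0.81, Fisher's exact test, FDR 1.79e-12). Its main tag had 264 and 451 copies and the tag at site 2 had 153 and 185. The corrected log2 ratio of Dctn2 was 0.51, below the ratio threshold.

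Dctn1, the subunit of the arm that binds microtubules, had 887 copies (262 TPM) and 1036 (314 TPM), a log2 ratio of 0.26 (95% interval 0.13 to 0.39, Fisher's exact test, FDR 0.000219). All 6 of its well-counted tags were higher. Its main tag ends in GT, and with the correction its log2 ratio was 0.67 and passed as upregulated. That corrected value rests on the median of tags with this end. Dctn3, a small subunit of the shoulder, had 475 and 537 copies and a log2 ratio of 0.21 (95% interval 0.03 to 0.39, Fisher's exact test, FDR 0.053).

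Dctn6, a subunit of the pointed end, fell from 500 copies (148 TPM) to 295 (89.3 TPM), a log2 ratio of -0.73 (95% interval -0.94 to -0.51, Fisher's exact test, FDR 7.51e-10). Its corrected log2 ratio was -0.45, below the ratio threshold. Dctn5, its neighbour in the complex, had 193 and 207 copies and a log2 ratio of 0.14 (95% interval -0.15 to 0.43). The pair differed by 0.86 (95% interval 0.50 to 1.22), and by 0.45 after the correction (0.08 to 0.81). Dctn4, also of the pointed end, had 16 and 13 copies.

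**Figure D3:**
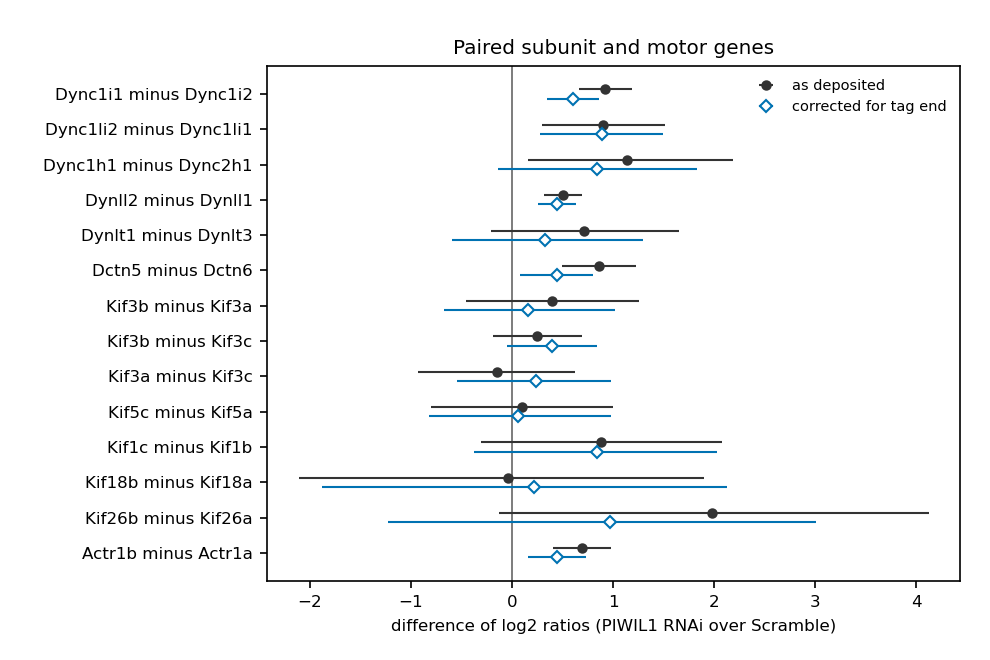
Difference of the log2 ratios (PIWIL1 RNAi over Scramble) of 14 gene pairs, with 95% intervals for counting error, as deposited (filled circles) and corrected for the tag end (open diamonds). The intervals of 6 pairs exclude 0 as deposited and those of 5 of them also after the correction, Dync1h1 and Dync2h1 being the exception. The side of 0 depends on which gene of a pair is put first.

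Over 14 pairs of related subunits and motors, the interval of the difference excluded 0 in 6, and in 5 of these also after the correction. Beside the pairs above, these included Actr1b and Actr1a, the actin-related proteins of the dynactin rod, with a difference of 0.70 (95% interval 0.41 to 0.99). The kinesin pairs all had intervals that included 0, from Kif3a and Kif3c at -0.15 (-0.93 to 0.62) to Kif26b and Kif26a at 1.98 (-0.13 to 4.13). No adjustment for the number of pairs was made to these intervals, and the pairs were chosen after the values were seen. The sign of a difference depends only on which gene of the pair is put first. How often the intervals of other gene pairs exclude 0 was not computed. For single genes the interval of the log2 ratio excluded 0 in 19 of the 45 members and in 2534 of all 9894 genes.

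The tags of 1 gene stand for different CATG sites of its transcripts, so their mix can move when transcripts end at different places or are cut to a different extent. Of 27 members with at least 2 tags of 20 or more copies, 5 had a changed mix at an FDR of 0.05 or less by a chi-square test over all genes, where 19.9% of all genes tested did. These were Dctn6, Dync1h1, Dync1i2, Dynlrb1 and Dynlt1. After the correction for the tag end, Dctn6 and Dynlt1 remained, against 10.7% of all genes. The tags that carried most of these shifts were the following, with copies in the Scramble and the PIWIL1 RNAi library.
Dctn6 site 1, 481 and 260: catgataacctgtcatattAT
Dctn6 site 2, 7 and 20: catgcagttactgtgtaaaAG
Dync1h1 site 1, 59 and 19: catgacggtgatccagtggGT
Dync1h1 site 2, 66 and 71: catgatcagcaagatgctgAA
Dync1i2 site 2, 336 and 182: catgttgatgccgttttccTT
Dync1i2 site 9, 23 and 39: catgccgccatggcagcaaAG
Dynlrb1 site 1, 544 and 363: catgcagaccttggcattgGT
Dynlrb1 site 2, 720 and 603: catgtggctgcctggagccAT
Dynlt1 site 1, 491 and 645: catgtactgcatcgtcagtGC
Dynlt1 site 2, 132 and 68: catgcagaagaatggtgctGG

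In Dynlt1 the tag at site 1 was higher in the PIWIL1 RNAi library (log2 ratio 0.43, 95% interval 0.26 to 0.60) and the tag at site 2 lower (-0.92, 95% interval -1.36 to -0.49). The corrected log2 ratios were 0.21 and -0.51, so the tags still lay on different sides of 0. The change of mix had an FDR of 7.88e-08 by the chi-square test as deposited and 0.0186 after the correction. In Dctn6, with an FDR of 0.000391 by the chi-square test and 0.0356 after the correction, nearly all copies lay on site 1, 96.2% in the control and 88.1% after RNAi, and the few copies at site 2 went from 7 to 20. In Dync1h1 the share of site 1 was 29.8% and 11.8%, but this tag ends in GT, and the change of mix did not pass after the correction. The most copied lower tag ended in AT in Dctn6 and Dynlrb1, in GT in Dync1h1, in TT in Dync1i2 and in GG in Dynlt1. Over all genes the median log2 ratios of well-counted tags with these ends were -0.39 (AT), -0.67 (GT), -0.21 (TT) and -0.55 (GG). How common such ends are among the lower tags of other genes was not computed.

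**Figure D4:**
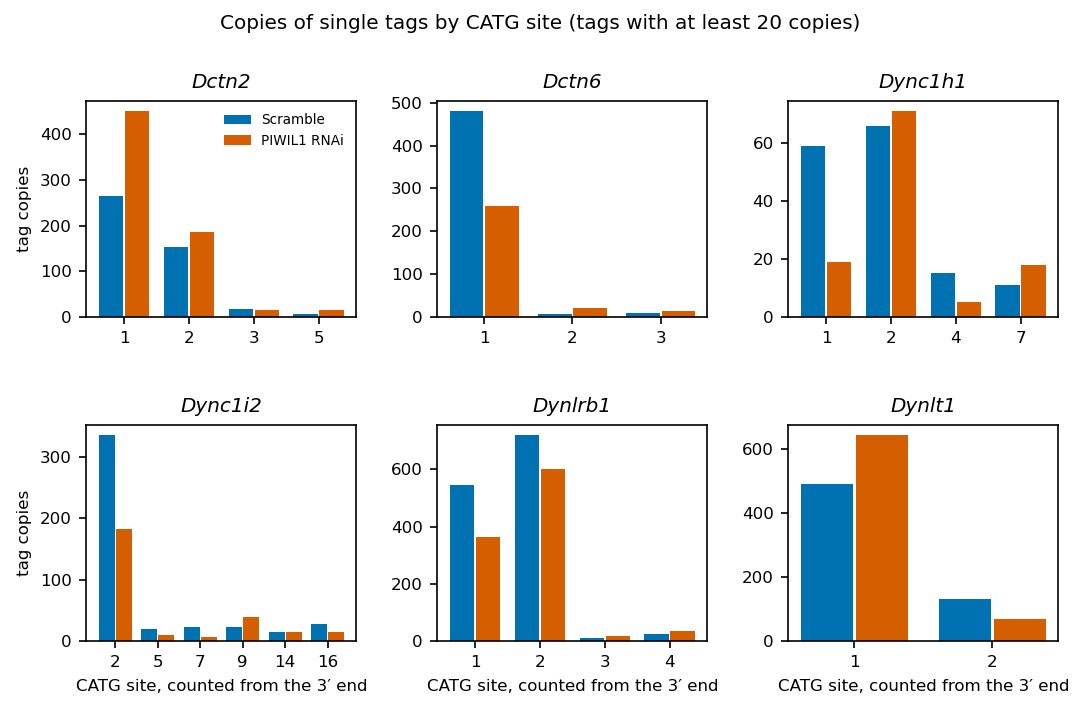
Copies of single tags of 6 members in the Scramble (blue) and PIWIL1 RNAi (orange) library, by CATG site counted from the 3′ end, for well-counted tags (20 copies or more). In Dynlt1 site 1 is higher and site 2 lower in the PIWIL1 RNAi library, in Dctn6 only site 1 is lower, and in Dctn2 site 1 holds most of the difference.

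Motors work with adaptors and regulators that the naming rule leaves out, as it does dynactin subunits with other symbols, such as Actr1a, Actr1b and Capzb. Of a list of 48 genes of these kinds 35 had a value. Of these 1 was downregulated and 2 upregulated, or 2.86% and 5.71%, against 5.97% and 2.96% of all genes. Kifap3, which joins the heterotrimeric Kif3 motor to its cargo, fell from 1072 copies to 685, a log2 ratio of -0.61 (95% interval -0.75 to -0.47, Fisher's exact test, FDR 3.78e-15). All 7 of its well-counted tags were lower, and its corrected log2 ratio was -0.55, below the threshold, as it was with TMM scaling (-0.52). Trak2, an adaptor of mitochondria, rose from 159 to 254 copies (log2 ratio 0.71, 95% interval 0.42 to 1.01, Fisher's exact test, FDR 7.30e-06), and 5 of its 6 well-counted tags were higher. Actr1b rose from 211 to 366 copies (0.83, 95% interval 0.58 to 1.08, Fisher's exact test, FDR 1.01e-10), with 23.9% of its copies on A-run tags. The corrected log2 ratios of Trak2 and Actr1b were 0.56 and 0.47, and neither passed. After the correction 1 other gene of the list was upregulated, Capzb, a capping protein of the dynactin rod named here after its value was seen. It had 578 and 651 copies, a log2 ratio of 0.21 as deposited and 0.61 corrected (Fisher's exact test, FDR 3.73e-13). Of its 6 well-counted tags 3 were lower and 3 higher. Its mix of tags had an FDR of 0.394 by the chi-square test as deposited and 0.00823 after the correction. The best counted of the other genes showed smaller differences than Kifap3, Trak2 and Actr1b. The dynein regulator Nudc had 990 and 959 copies (log2 ratio -0.01), Actr1a 787 and 843 (0.14), the kinesin adaptor Fez1 683 and 828 (0.31), the lysosomal GTPase Arl8b 686 and 633 (-0.08) and the kinesin cargo Kidins220 713 and 580 (-0.26).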

How the data were processed

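Per the labels, 1 Scramble and 1 PIWIL1 RNAi library of E16 rat neurons were sequenced. The authors deposited, for each gene, a count, which is the sum of its tag copies without normalization, and the TPM, that count per 1e+06 clean tags (3386865 and 3303361 in the Scramble and PIWIL1 RNAi library). The submitters' processing notes name the build rn4. The program that matched tags to genes is not given in the sources used here. Every tag was listed under 1 gene, and the lowest copy number was 2. GO terms were not used. Symbols came from a RefSeq table of another build, so no coordinates are given. By accession 43 members were found, and 2 (Kif21b and Dync2li1) by description.

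A two-sided Fisher's exact test was run per gene on its copies against all other copies on genes, with Benjamini-Hochberg adjustment over 9894 genes. A call needed an FDR not above 0.05 and a log2 ratio of TPM of 0.58 or more in size. Genes missing from one of the libraries were not held to the ratio. The 95% intervals are exact (Clopper-Pearson) and reflect counting error alone. Like Fisher's exact test, they treat each copy as an independent draw. Amplified copies are not independent molecules, so the true counting error can be larger. A count of 3 copies was 0.886 TPM for Scramble and 0.908 TPM for PIWIL1 RNAi. For the tag-end correction, the last 2 bases, or the length of a run of 3 or more A, defined classes of tags. The median log2 ratio of each class, less that of all well-counted tags, was estimated on other genes and taken out. The mix of tags was compared by a chi-square test. The alternatives were other scaling factors, A-run tags left out, the most copied tag alone, missing tags put back, count filters and an assumed variation between cultures. The steps were tested on simulated data.

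Named with values were all called members, the 4 best counted members of each group and members with a changed mix. So were the called genes and the 6 best counted of the list of adaptors, regulators and further dynactin subunits. Other members were named to account for all. The sequence of 1 tag is not reported here. The members and lists were chosen with earlier results of these data known, and the gene pairs after their values were seen. The software was R 4.3.3 (edgeR 4.0.16, DESeq2 1.42.0) for scaling factors and edgeR's exact test on the counts, and Python 3.11.15 (SciPy 1.17.1, NumPy 2.4.6, pandas 2.3.3, Matplotlib 3.10.9) for the rest.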

Additional observations from a re-analysis of the deposited data

How the results depend on the processing

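No paired analysis was possible because each group has 1 library, and no replicate could be left out. With the tag-end correction 2 members were downregulated in place of 6, both among the 6. When edgeR's exact test was given a biological coefficient of variation of 0.1, 0 members were downregulated and 1 was upregulated (Kif26b). Among all genes these counts were 170 and 114. With 0.2 the counts were 0 and 0 for members, and 2 and 15 for all genes. At an unadjusted p under 0.05, Fisher's exact test gave 20 of the 45 members and 2621 of all 9894 genes. Without tags that end in a run of 8 or more A, 1 member was upregulated, and 209 of all 9894 genes were. The log2 ratio of the summed Dync chains was 0.0516 with TMM factors (1.02 for Scramble and 0.976 for PIWIL1 RNAi) and -0.13 after the correction. That of the summed Dynl chains was 0.14 with TMM factors, 0.13 with DESeq2's size factors (1.04 and 0.959) and 0.12 with only the most copied tag of each gene. That of the summed Dctn genes was 0.265 with TMM factors, 0.256 with DESeq2's size factors and 0.33 after the correction. A changed mix of tags was called in 2 of 27 members after the correction and in 3 of 27 at an FDR of 0.001. Among all genes tested, it was called in 421 of 3935 and in 342 of 3985. The other 52 values of family totals, medians and counts were taken as unchanged. For family totals this meant a move no larger than counting error. The member median stayed within an interval from the ranked values of the 41 members (-0.32 to 0.14), which reflects spread among genes. Counts stayed close to the main one, but the 2 members upregulated after the correction were other genes than those upregulated as deposited. Of the values for single genes and pairs recomputed under the alternatives, which leave out Kif18b (upregulated after the correction, log2 ratio 0.70), 317 stayed on their side of the threshold, 22 lost a call and 4 gained one (Dctn1, Dynll2 under both scalings and Dync1li1 with only its most copied tag), and no called value changed sign.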
